A study of Mus musculus with 4 samples.

Results

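Ostf1 and Arl2bp are 2 of the 13925 genes that were tested in mouse embryonic fibroblasts treated with an siRNA against Xpo5. They were chosen because, with signal well above background on all 4 arrays, each read about 2.9-fold lower with Xpo5 siRNA than with control siRNA by its brightest probe. The members are all non-control probes that the array files name Ostf1 or Arl2bp, which gave 4 of 41174 probes, 2 for each gene. The cells were wild-type primary fibroblasts of C57BL/6 mouse embryos. One group received an siRNA against Exportin-5 and the other a negative control siRNA, both at 60 nM for 12 h, followed in both groups by 48 h in 0.2% serum and 24 h in 20% serum with a second dose of the same siRNA. The treatment was run 2 times independently, which gave 2 samples a group, and a 1-colour array was used for each.

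Ostf1 encodes osteoclast stimulating factor 1, a small intracellular protein with an SH3 domain and ankyrin repeats. It was named for an effect on the formation of osteoclasts, the cells that resorb bone, and it binds the kinase SRC. Arl2bp encodes a binding partner of ARL2, a small GTPase that takes part in tubulin folding and mitochondrial function, and of the related GTPase ARL3, which delivers lipid-modified proteins to cilia. The same protein has been reported to hold the transcription factor STAT3 in the nucleus. Xpo5 encodes Exportin-5, which carries microRNA precursors out of the nucleus. An siRNA can also lower transcripts other than its target when part of its guide strand pairs with them, and such a match is one reason to ask whether all probes of a gene read the same change. The siRNA sequences were not given in the sources used here, so a match to Ostf1 or Arl2bp was not tested.

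Every probe was a 60-base oligonucleotide, and positions are on the mm9 build as the files give them. The middle 30 bases of each probe, bases 16 to 45, are shown for the 4 probes of the members and for the brightest Xpo5 probe, because the comparison turns on which stretch of a transcript each probe reads. No base is in capitals, since no motif was searched in them.

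Ostf1 probe 1: ttgagtgggtttttcaagggggaaatggtt

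Ostf1 probe 2: attaagactcccaagcaagcaggagcctga

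Arl2bp probe 1: ccgtgctgactttccatgtgaccattagac

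Arl2bp probe 2: agaccctctgtgccacagccctttgttcat

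Xpo5 probe 1: ctcccttcaaaaagcagctgataaacgacg

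Ostf1 probe 1, A_51_P277345, lies on the minus strand at chr19:18655364-18655423 and is annotated to the Ostf1 RefSeq transcript. Ostf1 probe 2, A_51_P409616, lies 5351 bases away at chr19:18660715-18660774 and is annotated to a cDNA clone without a RefSeq accession. Its coordinates run on the plus strand, while RefSeq places Ostf1 on the minus strand, so by the coordinates it reads RNA of the opposite orientation. Coordinate order followed the strand of the gene for 99.1% of the 25981 probes that could be checked this way. Arl2bp probe 1, A_51_P396752, lies on the plus strand at chr8:97198181-97198240, and the files list RefSeq transcript variant 1 for it but not variant 2. Arl2bp probe 2, A_52_P153189, starts 1082 bases upstream at chr8:97197099-97197158, and the files list both variants for it. The place of these probes within exons or untranslated regions was not analysed here.

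The full 60-base sequences were compared with one another. The longest run that a member probe shared with any other probe on the array, on either strand, was 13 or 14 bases, and 0 other probes shared 20 bases with any of the 4. The longest run shared with any of the 4 Xpo5 probes was 6 to 8 bases.

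The targeted gene was lower in both treated samples. After scaling to the 75th percentile of each array, the log2 signal of Xpo5 probe 1 was -1.95 and -1.93 with Xpo5 siRNA, against 1.31 and 1.26 with control siRNA. The share of spots well above background was 62.4% to 65.0% per array, and precision is limited by there being 2 arrays a group. Fibroblast markers were well above background on all 4 arrays for 10 of 10 genes, among them Col1a1, Pdgfra and Thy1. Of the 8 macrophage markers, 8 read higher with Xpo5 siRNA, by a median log2 difference of 0.69, and their summed signal in units of the 75th percentile was 64.8 and 56.6 with Xpo5 siRNA, against 45.5 and 32.8 with control siRNA. Of 4 endothelial markers Pecam1 and Cdh5 were too dim and 2 read higher, and of 4 epithelial markers Epcam and Cdh1 were too dim and 2 read lower. The part of these markers in the values below was not tested, and in bulk RNA fewer cells with a transcript and less of it per cell cannot be told apart.

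Ostf1 was low in both Xpo5 siRNA samples and high in both controls. Probe 1 had a processed signal of 1423 and 1332 intensity units with Xpo5 siRNA in experiments 1 and 2, against 4149 and 4196 with control siRNA. The scanner software gave each of these an error of about 10.0% of the signal. Scaled in the same way, the log2 signal was 1.43 and 1.36 with Xpo5 siRNA, and 2.97 and 2.84 with control siRNA. The groups did not overlap, and the lowest control lay 1.42 above the highest treated sample.

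The means were 1.40 ± 0.04 with Xpo5 siRNA and 2.91 ± 0.09 with control siRNA (SD, n = 2 each), so that Ostf1 read -1.51 ± 0.07 on the log2 scale (SE from these arrays), or 2.85-fold lower. The fall was 2.92-fold in experiment 1 and 2.79-fold in experiment 2, which left 34.2% and 35.9% of the control signal. These values chose the gene and are a description, without a test. The 2 experiments therefore gave nearly the same size of fall, and the samples of 1 group differed by 0.06 with Xpo5 siRNA and by 0.13 with control siRNA.

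Ostf1 probe 2 could not answer whether a second probe agrees. It was not well above background on any of the 4 arrays, with a processed signal of 3.16 and 2.34 units with Xpo5 siRNA, and 2.38 and 3.25 units with control siRNA. The scanner's error on these was 68.1% to 99.9% of the signal. Together with the opposite orientation of this probe, this leaves the fall of Ostf1 resting on 1 probe, and no fold is given for the other.

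Arl2bp was measured by both of its probes, and they read different sizes of fall. Probe 1 had a processed signal of 4887 and 3725 units with Xpo5 siRNA in experiments 1 and 2, against 12300.4 and 13964 units with control siRNA. Its log2 signal was 3.21 and 2.85 with Xpo5 siRNA, and 4.54 and 4.58 with control siRNA. The groups did not overlap, and the treated samples lay farther apart than the controls.

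The probe 1 means were 3.03 ± 0.25 with Xpo5 siRNA and 4.56 ± 0.03 with control siRNA (SD, n = 2 each). The difference was -1.53 ± 0.18 (SE), or 2.89-fold lower, with 2.52-fold in experiment 1 and 3.32-fold in experiment 2. That left 39.7% and 30.2% of the control signal. This probe also chose the gene, so these are again values without a test.

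Arl2bp probe 2 had a processed signal of 1380 and 1432 units with Xpo5 siRNA, against 1699 and 2184 units with control siRNA. Its log2 signal was 1.38 and 1.47 with Xpo5 siRNA, and 1.68 and 1.90 with control siRNA. Both treated samples were again lower than both controls, by a margin of 0.22. The difference was -0.37 ± 0.12 on the log2 scale (SE, n = 2 each), or 1.29-fold lower, which left 77.5% of the control signal.

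The difference read by probe 1 minus that read by probe 2 was -1.03 on the log2 scale in experiment 1 and -1.30 in experiment 2. The 2 probes thus agreed in direction in each experiment and disagreed in size. Averaging them gives -0.95 for Arl2bp. The probe 2 value was -0.52 within slide 1 and -0.22 within slide 2, while that of probe 1 was -1.37 and -1.69. Each slide held the treated sample of 1 experiment and the control of the other, so these values cross the experiments. None of the 4 member probes carried a flag for an uneven or outlying spot or for saturation on any array. With normexp background correction, probe 1 read -2.70 and probe 2 -1.09, and without the spots marked for uneven background the same correction gave -1.45 and -0.46.

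**Figure D1:**
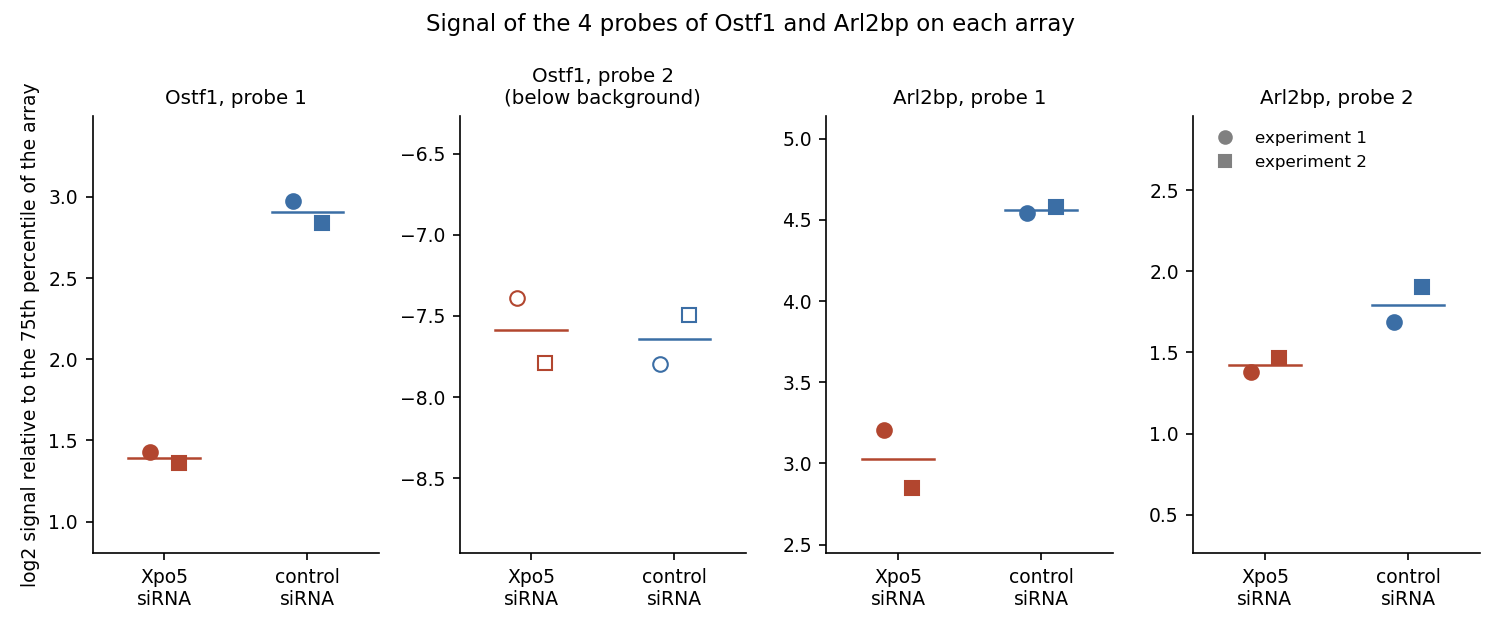
Log2 signal, scaled to the 75th percentile of each array, for every probe of Ostf1 and Arl2bp. Circles are experiment 1, squares experiment 2, horizontal lines the group means, and open symbols a probe below background; each panel spans the same range on its own axis. Ostf1 probe 1 and Arl2bp probe 1 read -1.51 and -1.53 with Xpo5 siRNA, Arl2bp probe 2 read -0.37, and Ostf1 probe 2 gave no usable signal.

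The target itself serves as a comparison for how probes of 1 gene can differ here. Xpo5 probe 1 read -3.23 ± 0.03 (SE from these arrays, n = 2 each), where limma gave an SE of 0.12. Probe 2, at chr17:46379784-46379843, read -3.08 ± 0.24, so that the 2 brightest probes were 0.15 apart. Another probe, much dimmer but well above background on all 4 arrays, read -1.34 ± 0.66, so not all Xpo5 probes agreed in size. The remaining probe rose above background on 1 array.

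Over the whole array, 5728 genes had 2 or more probes well above background on all 4 arrays, and the difference between the siRNAs was compared for the brighter and the second probe of each. The median absolute gap between the 2 readings was 0.16 on the log2 scale, and the 95th percentile was 0.57. For Arl2bp the gap was 1.16, a size that 13 of the 5728 genes (0.227%), Arl2bp included, reached or passed. Arl2bp is thus far out in this distribution. Since it was chosen by a large fall of its brighter probe, its place there is partly set by that choice and carries no test. Where the files list different RefSeq accessions for the 2 probes, as for Arl2bp, the median gap was 0.17 over 572 genes. Of these, 3 reached the gap of Arl2bp, with Arl2bp itself counted. Where they list the same accessions the median gap was 0.16 over 4021 genes, of which 6 reached the gap of Arl2bp.

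**Figure D2:**
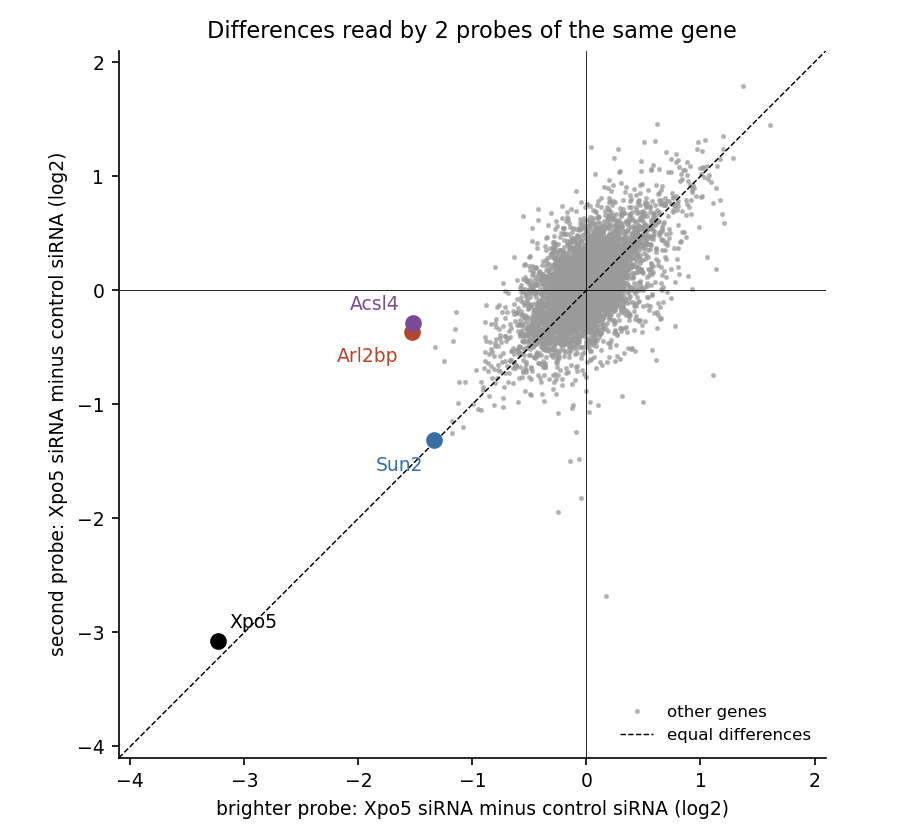
Difference between Xpo5 siRNA and control siRNA on the log2 scale for the brighter probe (horizontal axis) and the second probe (vertical axis) of 5728 genes, each point a gene, with the dashed line marking equal readings. Xpo5 and Sun2 lie close to the line, and Arl2bp and Acsl4 lie together above it, with brighter probes at -1.53 and -1.52 and second probes at -0.37 and -0.29.

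Among genes that fell strongly, Arl2bp was not alone in this. The brighter probe of 15 such genes, Xpo5 included, read at least 2-fold lower, and their second probes were lower in 15 of 15 but at least 2-fold lower in 5. The median was -1.18 for the brighter and -0.80 for the second probes. Arl2bp had the 12th largest fall by second probe of the 15. The nearest case was Acsl4, a long-chain acyl-CoA synthetase, at -1.52 and -0.29. The probes agreed closely for Sun2, a protein of the inner nuclear membrane, at -1.34 and -1.31, for the helicase and nuclease gene Dna2 at -1.18 and -1.15, and for the centrin gene Cetn3 at -1.18 and -1.25.

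The same counts were taken with other ways of choosing. Of 20 genes whose second probe read at least 2-fold lower, the brighter probe did so in 5, with a median of -0.25. Of 27 genes whose brighter probe read at least 2-fold higher, 14 had a second probe at least 2-fold higher, with medians of 1.11 and 1.01. Differences between these shares were not tested. In Arl2bp the brighter probe is the downstream one on the transcript, as in 13 of the 15 falling genes and in 71.0% of the 5676 genes whose probes could be ordered.

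**Figure D3:**
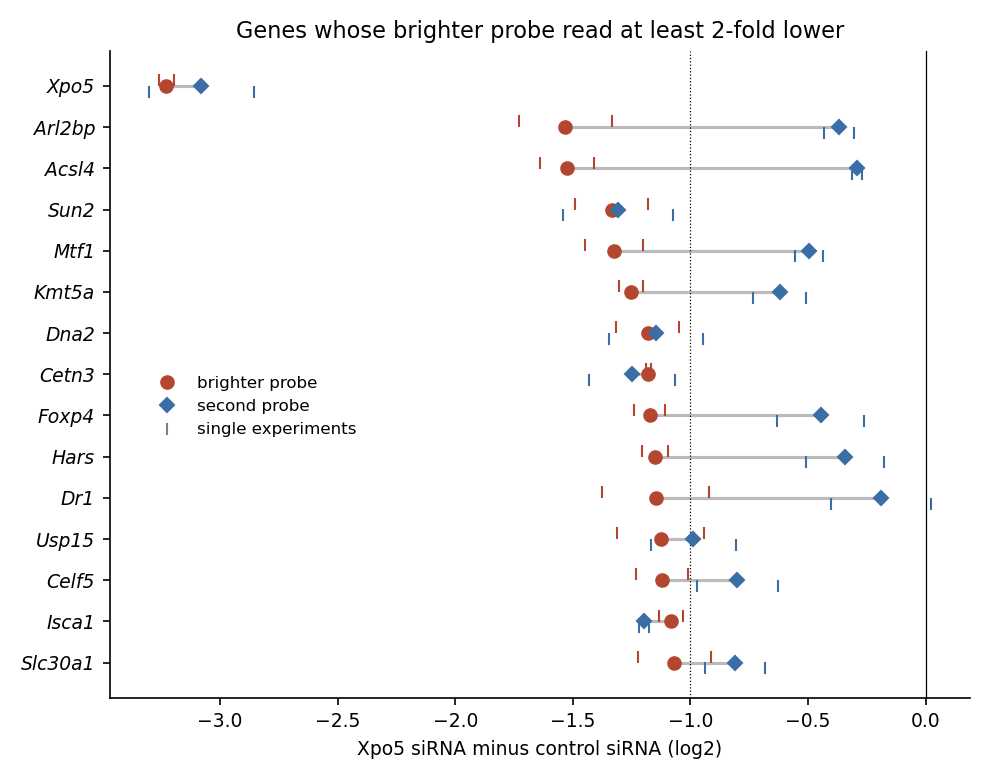
Log2 difference between Xpo5 siRNA and control siRNA for the 15 genes whose brighter probe (circles) read at least 2-fold lower, with the second probe of the same gene (diamonds) and the values of the single experiments (ticks). The dotted line marks a 2-fold fall. The second probe of Arl2bp stands at -0.43 and -0.30 in the single experiments, while its brighter probe stands at -1.73 and -1.33.

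Set in the order of all falls, the 2 genes stood close together. Of 13430 genes well above background on all 4 arrays, 34 (0.253%) read at least 2-fold lower, and in 3097 (23.1%) both treated samples were below both controls. Both members were in each of these sets, which their choice fixes. Xpo5 was first, Arl2bp number 4 at -1.53, and Ostf1 number 6 at -1.51, with Acsl4 between them at -1.52. Just above Arl2bp stood Tssk1, a testis kinase gene, at -1.65 with a limma SE of 0.73. Tssk1 had -5.64 and -5.03 with Xpo5 siRNA, against -4.77 and -2.59 with control siRNA, so its size rests largely on 1 control sample. Just below Ostf1 stood Hdac4, a histone deacetylase gene, at -1.36 with a limma SE of 0.18. By the same measure the SE was 0.17 for Arl2bp and 0.13 for Ostf1, which differs from the SE from these arrays given above.

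The profile over the 4 arrays was compared by the root mean square distance between log2 values centred on the mean of each gene. For Ostf1 the 5 nearest of 13429 genes were Acsl4 at 0.077, Hdac4 and Arl2bp at 0.121 each, Sun2 at 0.140 and Fbln2, an extracellular matrix gene, at 0.143. For Arl2bp, by probe 1, they were Acsl4 at 0.067, Sun2 at 0.103, Ostf1 at 0.121, the histone methyltransferase gene Kmt5a at 0.170 and Dna2 at 0.185. The median distance of all genes was 0.769 from Ostf1 and 0.787 from Arl2bp. Each member was number 3 among the genes nearest to the other, over 4 arrays. The fall is the main part of each profile and both genes were chosen for it, so this nearness largely restates the choice. What separates them is small, since Arl2bp was lowest in experiment 2 of Xpo5 siRNA and Ostf1 was about level in the 2 experiments.

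**Figure D4:**
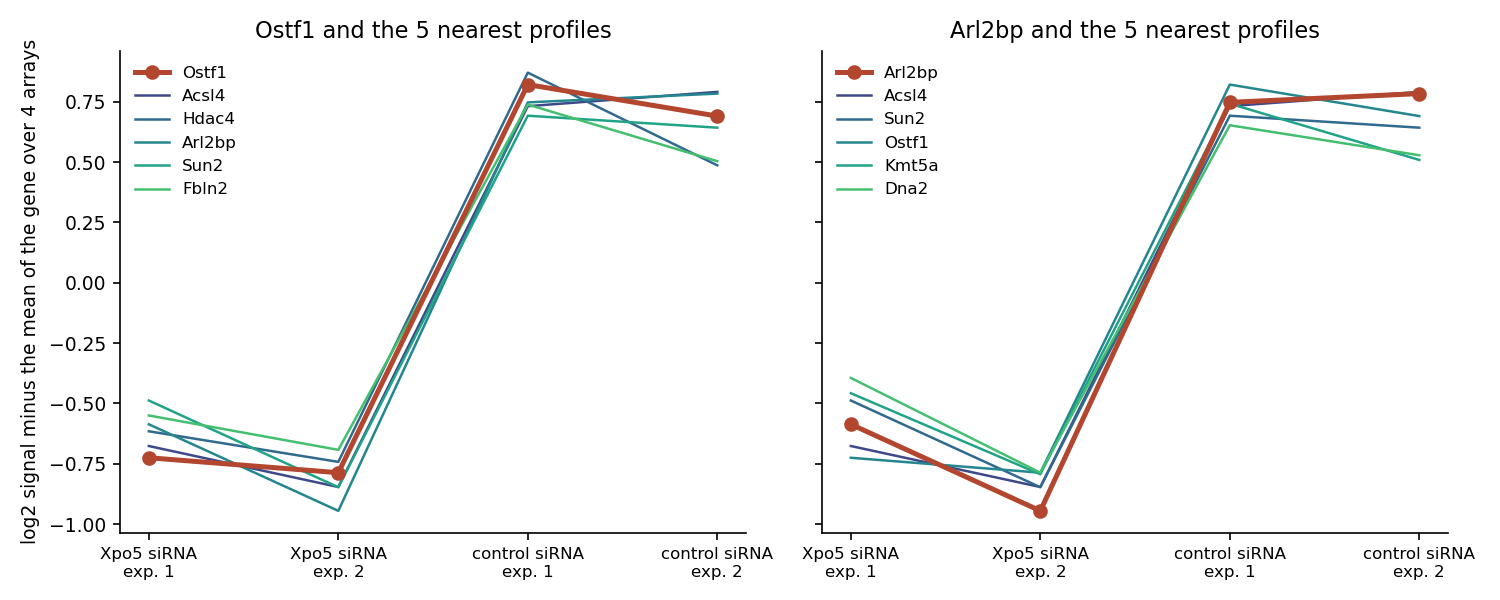
Log2 signal of Ostf1 (left) and Arl2bp (right), minus the mean of the gene over the 4 arrays, with the 5 genes of nearest profile; the horizontal axis gives the arrays by siRNA and experiment (exp.). Acsl4 was nearest to both, at root mean square distances of 0.077 and 0.067.

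By their brightest probes, the genes around ARL2 and ARL3 read between -0.28 and 0.39. A list of 18 genes holds ARL2, ARL3, proteins that bind, regulate or are carried by them, cofactors of tubulin folding, Slc25a4 and Stat3. Of the list 17 were tested, all well above background on the 4 arrays. Of these, 6 read lower and 11 higher, where 48.8% of all genes tested read lower, and the median was 0.07 against 0.01 over all genes. In limma 0 of the 17 passed at an adjusted p under 0.05, where 0.0215% of all 13925 genes did, and 0 passed with the replicate number as a block, where 4.37% did. At an unadjusted p under 0.05 there was 1 gene, against 14.7% of all genes.

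Arl2 read 1.96 and 1.90 with Xpo5 siRNA, against 1.69 and 1.98 with control siRNA, and Arl3 read 2.60 and 2.63 with Xpo5 siRNA, against 2.37 and 2.66 with control siRNA. The groups overlapped for each, so by these probes a difference beyond the spread of the samples was detectable for neither GTPase. A second Arl2 probe, well above background on all 4 arrays, read 0.25. The 4 genes with the smallest p were Elmod2, which activates the GTP hydrolysis of ARL2, at 0.39 ± 0.14 (limma SE, adjusted p = 0.322), Rp2, which does so for ARL3, at -0.27 ± 0.12 (limma adjusted p = 0.405), Pde6d, which carries prenylated proteins, at -0.28 ± 0.14 (limma adjusted p = 0.426) and Arl13b, a ciliary GTPase, at 0.30 ± 0.20 (limma adjusted p = 0.549). The other probes of Rp2 read 0.16 and 0.02 and those of Arl13b -0.33 and 0.20, so the sign differed between probes of each gene. Stat3 read 4.07 and 3.82 with Xpo5 siRNA, against 4.39 and 4.04 with control siRNA. Its groups overlapped, and within experiments it read -0.32 and -0.22 (limma adjusted p = 0.552, and 0.178 with the block).

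Of 7 genes whose products have been reported to bind or modify OSTF1, all were tested. By their brightest probes 5 read lower and 2 higher, with a median of -0.19. That median is the value of Myo1e, whose other probes, well above background on all 4 arrays, read 0.50 and 0.30. Second probes of Cbl and Rps6ka1 read -0.37 and 0.34, in the direction of their brightest probes. Of all genes 48.8% read lower. In limma 0 passed, with 1 at an unadjusted p under 0.05, where 14.7% of all genes had such a p in either direction. With the replicate number as a block 1 passed, as a fall, where 4.37% of all genes passed in either direction. That gene was Rps6ka3, the gene of a kinase of the RSK family, with a log2 signal of -1.59 and -1.31 with Xpo5 siRNA, against -0.64 and -0.38 with control siRNA. Its groups did not overlap, and it read -0.94 ± 0.17 (limma SE, adjusted p = 0.160, and 0.0434 with the block). Among the other kinases Rps6ka1 read 0.35 ± 0.17 (limma adjusted p = 0.432) and Src -0.39 ± 0.20 (limma adjusted p = 0.438), with a second Src probe at 0.11. Smn1, needed for the assembly of splicing particles, read -0.25 ± 0.15 (limma adjusted p = 0.50).

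Osteoclast genes had no common direction. Of 12 listed, 9 were tested, while Calcr, Dcstamp and Atp6v0d2 were too dim. Of the 9, 5 read lower and 4 higher by their brightest probes, with a median of -0.02. Among the 5, Nfatc1 read -0.29 but 0.42 by a second probe, while second probes of Mmp9 and Tnfrsf11a read -0.16 and -0.24. Of all genes 48.8% read lower. In limma 0 passed, with 2 at an unadjusted p under 0.05, where 14.7% of all genes had such a p in either direction. With the replicate number as a block 1 passed, as a rise, where 4.37% of all genes passed in either direction. That gene was Itgb3, an integrin subunit that fibroblasts also make, with 3.51 and 3.62 with Xpo5 siRNA, against 2.84 and 2.70 with control siRNA, a difference of 0.79 ± 0.13 (limma SE, adjusted p = 0.158, and 0.0466 with the block). A second Itgb3 probe, well above background on all 4 arrays, read 0.27. Csf1r, the receptor gene of the macrophage growth factor, read 0.72 ± 0.23 (limma adjusted p = 0.267), and it is also in the macrophage list above. Ctsk, a bone-resorbing protease gene, read 0.25 ± 0.15 (limma adjusted p = 0.489) and Oscar 0.37 ± 0.26 (limma adjusted p = 0.563).

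Genes near the 2 loci were compared as well. Within 500 kb of the Ostf1 probes, on chromosome 19, 3 other genes were tested. In limma 0 of them passed, where 0.0215% of all genes did, and 0 with the replicate block, where 4.37% did. Of the 3, 2 read lower and 1 higher, with a median of -0.23, where 48.8% of all genes read lower. An unadjusted limma p under 0.05 was seen in 1 of the 3, against 14.7% of all genes. So few genes cannot show a share. The nearest, Nmrk1, a kinase gene of NAD synthesis 70.4 kb away, read -1.63 and -1.83 with Xpo5 siRNA, against -2.10 and -1.67 with control siRNA, and its groups overlapped. Carnmt1 read -0.23 ± 0.13 (limma adjusted p = 0.490). D030056L22Rik read -0.61 ± 0.13 (limma SE, adjusted p = 0.178), with 2.30 and 2.17 with Xpo5 siRNA, against 2.84 and 2.85 with control siRNA. It lay 137 kb from Ostf1 and was lower in both experiments.

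Within 500 kb of the Arl2bp probes, on chromosome 8, 20 other genes were tested. Of these 8 read lower and 12 higher, with a median of 0.07, and 0 passed in limma, with 6 at an unadjusted p under 0.05, where 48.8% of all genes read lower and 14.7% had such a p. Rpl10 is among the 8 by the place of its brightest probe, while its other probe was not placed within this window. The immediate neighbours were near 0 or too dim to read. The 3 probes of Rspry1, the nearest 14.6 kb upstream, read between -0.12 and 0.04, and the 3 probes of Pllp, the nearest 1.40 kb downstream, did not pass the filter on dim probes.

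With the replicate number as a block, 3 of the 20 passed, where 4.37% of all genes did. One of them, Nlrc5, a regulator of MHC class I genes, was kept only through the Xpo5 siRNA arrays, since its probe did not clear background in either control sample, so its pass carries no weight. Mt1 and Mt2, the genes of the metal-binding metallothioneins about 500 kb upstream, read -0.89 ± 0.21 and -0.88 ± 0.19 (limma adjusted p = 0.192 and 0.179, and 0.0434 for each with the block). They are related genes, and whether their probes share signal was not tested. Cx3cl1, a chemokine gene 108 kb downstream, read 0.49 ± 0.16 (limma adjusted p = 0.280).

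**Figure D5:**
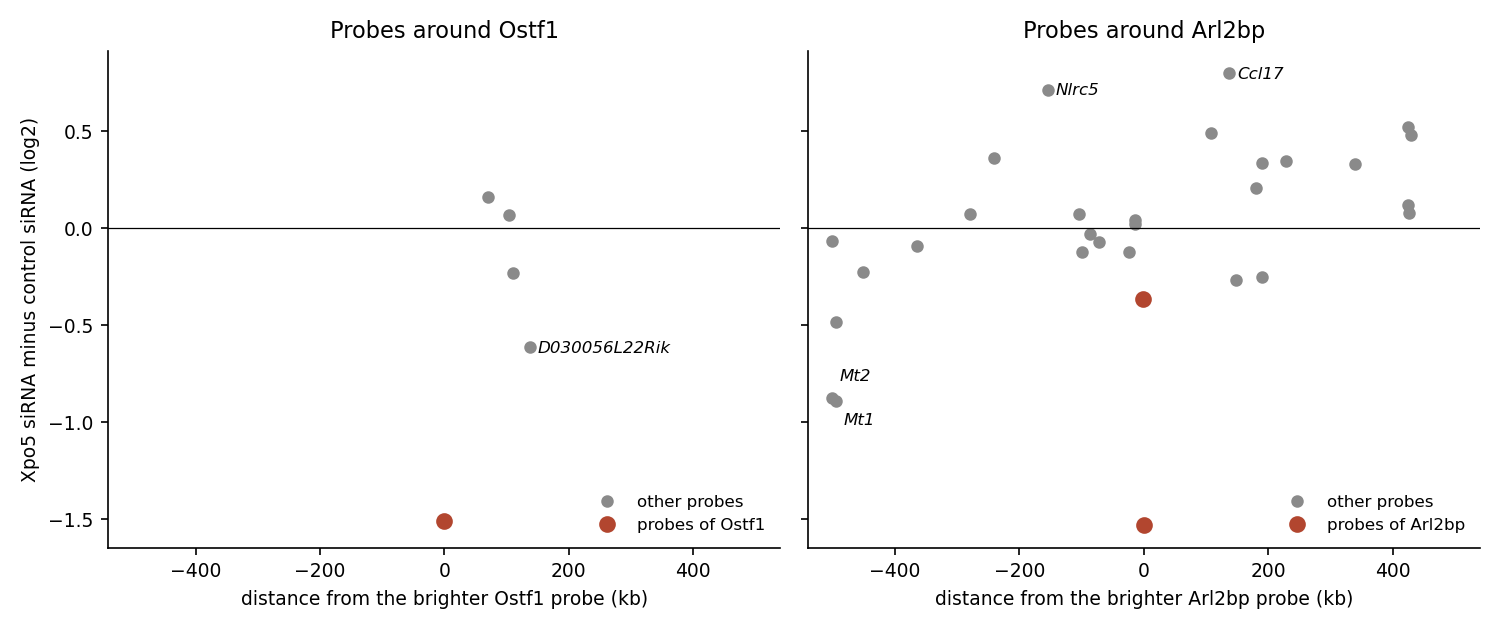
Log2 difference between Xpo5 siRNA and control siRNA for every probe that passed the filter on dim probes, against its distance in kb from the brighter probe of Ostf1 (left) or Arl2bp (right). The brighter probes of the members, at -1.51 and -1.53, were chosen for their fall, so their place below the neighbours is set by that choice. Arl2bp probe 2 reads -0.37, and Mt1 and Mt2 at the left edge read -0.89 and -0.88.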

How the data were processed

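Per the labels' protocols, Cy3-labelled cRNA of each sample was measured on a 1-colour Agilent array. The authors' scanner files give 1 intensity per spot with background and spatial trend removed, and their headers name Agilent Feature Extraction 10.5.1.1. The authors also deposited a table of log2 values, which follow these signals after a constant shift per array, within 0.001 for 99.7% to 99.8% of the probes.

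The log2 processed signal was averaged over the spots of a probe, without outlier spots, and the 75th percentile of the array was subtracted. Of 41174 probes, 25643 were kept because 1 group or both had them well above background throughout. Symbols came from the RefSeq table of GRCm38.p6, by accession for 26792 probes, symbol for 5125 and synonym for 929, with 8328 unmatched. Genes were tested by their brightest kept probe in limma 3.58.1 under R 4.3.3 (lmFit, eBayes, two-sided, Benjamini-Hochberg over 13925 genes), and the fit was tested on simulated data. The members, lists and rule for named genes were chosen with earlier results of these data known. The rule names every member probe, the 4 smallest p of a list, the nearest genes and the 5 nearest profiles. The smallest exact permutation p for 2 against 2 arrays is 0.333, so single genes were not tested by permutation. The p-values printed for single genes are those of limma, and none is given for the members.

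Replicate numbers were read as the 2 experiments of the series text. Deviations from the group means had r = 0.452 for same-numbered arrays (13917 genes). Both slides carried an array from either group, the treated sample of 1 experiment with the control of the other. A difference within a slide thus crosses the experiments, and a difference within an experiment crosses the slides. Since nothing states separate cultures beyond the 2 experiments, p-values cover only the spread among these 4 samples. Alternatives were normexp, quantile and median scaling, other filters, blocks and each array left out.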

Additional observations from a re-analysis of the deposited data

How the results depend on the processing

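The 3 measured member probes and Xpo5 read lower with Xpo5 siRNA under all 14 or 15 alternatives, and Ostf1 probe 2, below background, gave no value. Ostf1 read -1.62 with median scaling and with the deposited table, and -1.42 and -1.61 within slides 1 and 2. With normexp it read -2.23, and -1.56 when spots of uneven background were left out of that correction. Arl2bp probe 1 read -2.70 with normexp and -0.95 as the mean of the probes, and probe 2 -1.09 with normexp and -0.52 and -0.22 within the slides. Xpo5 read -2.08 with normexp, -2.81 when spots of uneven background were left out of it, -3.33 with median scaling and with the deposited table, -3.18 with the 75th percentile of detected probes and -2.55 as the mean of the probes. With each array left out in turn the ranges were -1.58 to -1.45 for Ostf1, -1.71 to -1.35 and -0.48 to -0.26 for the 2 Arl2bp probes, and -3.25 to -3.20 for Xpo5. The cause of these shifts was not tested.

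Over all genes, 3 passed in limma, against 0 with normexp, 8 with median scaling, 8 with the deposited table, 0 with no filter on dim probes, 1 with probes well above background on all arrays, 1 with the mean of the probes and 609 with the replicate block. Leaving out 1 array gave 0 to 24 with the same genes tested. With the filter on dim probes and the choice of probe redone on the 3 arrays left, an alternative chosen after seeing the data, it gave 90 and 43 without replicate 1 and 2 of Xpo5 siRNA, and 67 and 113 without replicate 1 and 2 of control siRNA, so this count depends on how the filter treats the lone array. The replicate block, a pairing by experiment, left the member differences at -1.51, -1.53 and -0.37 by construction. With it 1 partner gene of Ostf1, 1 osteoclast gene and 3 neighbours passed, and 0 passed in those lists under the other alternatives, except 1 neighbour, Pllp, without replicate 1 of control siRNA and with the filter redone. Pllp was then kept through the lone control array, the only 1 on which any of its probes was well above background.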
